A study of Mus musculus with 24 samples.

Results

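The astrocyte genes are a set of 10 genes, listed by name, out of 37289 genes in the deposited RNA tables: Gfap, Aqp4, Slc1a2, Slc1a3, Aldh1l1, Gja1, Gjb6, Aldoc, S100b and Fgfr3. All 10 passed the filter on low counts and were among the 15955 genes tested. RNA came from the micropunched striatum of 12 C57BL/6 mice labelled female, 3 in each of 4 groups: wild-type control, wild-type stressed, het control and het stressed. "Het" mice were heterozygous for Cntnap2, which encodes a neuronal adhesion protein. In the stressed groups the pregnant mother had gone through variable stress for 7 days from embryonic day 12.5; control mothers had not. All offspring were ear-tagged on postnatal day 12 and weaned on day 18, so no group was free of that handling. No source used here gives the age at collection. The stress reached the mother, so mice of 1 litter may share a group.

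Astrocytes are glial cells that take up neurotransmitter and potassium after synaptic activity, pass metabolites between cells and line blood vessels with their end feet. Gfap is an intermediate filament protein of their cytoskeleton, and its rise is a widely used sign of astrocyte reactivity. Slc1a2 and Slc1a3 are the main glial glutamate transporters, Aqp4 is the water channel of the end feet, and Gja1 and Gjb6 are connexins that join astrocytes through gap junctions. Aldh1l1 works in folate metabolism, Aldoc is a glycolytic aldolase, S100b binds calcium and is secreted, and Fgfr3 is a receptor for fibroblast growth factors. In bulk tissue, fewer astrocytes and less RNA per astrocyte cannot be told apart.

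The RNA libraries held 13587154 to 24039706 expected counts, and all 6 het libraries (21410135 or more) were deeper than all 6 wild-type libraries (18538304 or fewer). Cntnap2 was at 35.97 to 68.27 TPM (transcript abundance scaled for length and library depth) with overlapping genotypes, so it did not separate the labels, whereas Gm6736, named as a pseudogene whose reads may come from near-identical copies, was at 13.29 to 16.61 TPM in het and 0 to 0.21 TPM in wild-type libraries. Xist, made from the inactive X chromosome of female cells, was at 1.32 TPM in the library labelled wild-type stressed replicate 2, against 23.09 to 108.6 TPM in the other 11. This value goes against the label, and the sex of that mouse is in doubt. The RNA table of het control replicate 1 carries another animal number than its label. The quasi-likelihood test of edgeR, two-sided, on rounded expected counts was used to compare the groups, with Benjamini-Hochberg adjustment over the 15955 genes tested, and a gene was called at an adjusted p of 0.05. A log2 fold change of a single gene is given as a result only where it is at least as large as its standard error (SE), which held for 27 of the 80 values of the 10 genes in 8 comparisons.

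The bases upstream of the start sites were read from RefSeq promoters of build GRCm38.p6, in which 9 of the 10 genes had an entry. Aqp4 had none. The windows of 3 genes are shown because Gfap differed most between groups and because Gjb6 and S100b were called beside it by 1 alternative test. The last base of each line is the base before the annotated start, read 5′ to 3′ on the gene's strand, and capitals mark any of 6 short motifs searched on both strands.

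Gfap, chr11:102897201-102897450, minus strand: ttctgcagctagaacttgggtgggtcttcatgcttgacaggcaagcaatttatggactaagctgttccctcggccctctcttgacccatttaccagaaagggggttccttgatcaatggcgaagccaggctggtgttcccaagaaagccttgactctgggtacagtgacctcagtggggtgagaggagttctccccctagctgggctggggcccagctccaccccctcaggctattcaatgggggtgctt
Gjb6, chr14:57133612-57133861, minus strand: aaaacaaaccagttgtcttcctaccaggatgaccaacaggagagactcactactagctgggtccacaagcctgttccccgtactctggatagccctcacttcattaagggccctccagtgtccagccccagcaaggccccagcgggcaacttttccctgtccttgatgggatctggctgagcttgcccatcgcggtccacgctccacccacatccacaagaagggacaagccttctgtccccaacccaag
S100b, chr10:76253586-76253835, plus strand: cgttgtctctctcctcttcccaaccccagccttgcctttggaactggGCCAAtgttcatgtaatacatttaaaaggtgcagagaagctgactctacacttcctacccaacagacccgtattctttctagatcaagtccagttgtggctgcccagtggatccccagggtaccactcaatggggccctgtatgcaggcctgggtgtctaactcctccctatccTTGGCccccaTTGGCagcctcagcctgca

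The capitals in S100b are the nuclear factor I site TTGGC, found 203, 29 and 19 bases before the start. This site also stood in the windows of Slc1a2 and Aldoc, and in 41.5% of all 32851 promoters over the same 250 bases. None of the 6 motifs was found in the windows of Gfap and Gjb6, which says only that these letters are not there. The STAT palindrome TTCNNNGAA stood in Aldoc and Slc1a3 (7.02% of all promoters), the AP-1 site TGANTCA in Gja1 (6.75%), the E-box CAGCTG in Fgfr3 (13.0%) and the TATA box TATAAA in Slc1a3 (12.4%). The TATA box letters in Slc1a3 lay on the opposite strand (read as TTTATA), 161 bases before the start. The SOX core ACAAAG (16.5%) was in none of the 9. None of the 6 motifs contains another. A match is a description of the sequence, and binding was not measured.

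All 10 genes were well expressed in every library. Aldoc had the highest level, 943.3 to 1307 TPM with a mean of 1060 TPM over the 12 libraries. It lay at the 99.7th percentile of all 37289 genes in the deposited tables. It was 4.36 times S100b (mean 244 TPM), the next in order, and it was the only gene whose range did not overlap that of its neighbour. Slc1a3 (195 TPM) and Slc1a2 (162 TPM) followed, then Gfap (67.3 TPM), Gja1 (61.3 TPM), Gjb6 (29.87 to 57.95 TPM), Fgfr3 (34.7 TPM), Aldh1l1 (29.0 TPM) and Aqp4 (18.4 TPM). Neighbours in this order overlapped in range from S100b down, although within a library Slc1a2 exceeded Gfap in 12 of 12 and Aldh1l1 exceeded Aqp4 in 12 of 12. Gfap and Gja1 were the closest pair, with Gfap higher in 7 of 12 libraries. Counts behind these levels ran from 445 for Gjb6 in its lowest library to 38099 for Slc1a2 in its highest.

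**Figure D1:**
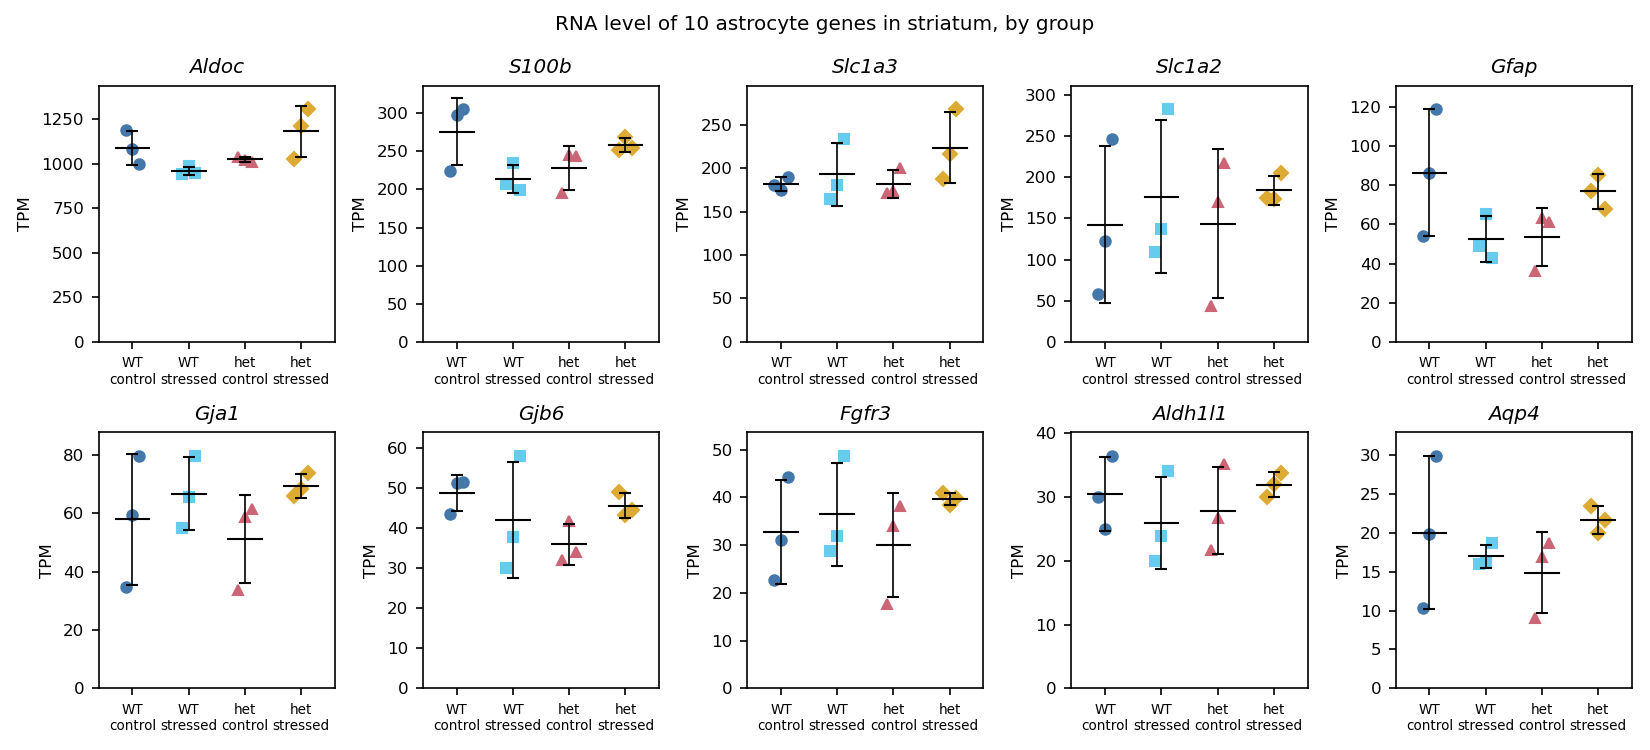
TPM (vertical axis, from 0) of the 10 astrocyte genes in the 4 groups; each point is 1 library, the line is the group mean and the bar its SD (n = 3). Aldoc and Slc1a3 vary little between libraries, whereas Slc1a2 spans 43.08 to 282.7 TPM and the 3 het stressed libraries lie close together for most genes.

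The genes differed widely in how far their TPM varied between mice. Aldoc varied 1.39-fold from its lowest to its highest library, S100b 1.57-fold and Slc1a3 1.63-fold. At the other end, Slc1a2 varied 6.56-fold, Aqp4 3.32-fold and Gfap 3.27-fold. In CPM (counts scaled to library size) the lower end had another order. Aldh1l1 varied 1.38-fold, Slc1a3 1.53-fold, Aldoc 1.76-fold and S100b 1.92-fold. Slc1a2 (3.8-fold), Gfap (2.85-fold) and Aqp4 (2.0-fold) also varied most in CPM. Slc1a2 has the longest transcripts of the set, with an effective length of 10796 nucleotides (nt), and its level went with the length slope of the library. The length slope is the slope of a library's log2 CPM, as deviations from each gene's mean, on the log2 effective length. What sets the slope was not tested. It was lowest in het control replicate 1 (-0.336) and wild-type control replicate 1 (-0.271) and highest in wild-type control replicate 3 (0.254) and wild-type stressed replicate 3 (0.268). Slc1a2 was at 43.08 and 58.57 TPM in the first pair and at 246.4 and 282.7 TPM in the second, which are its lowest and highest values. Gja1 was at 33.73 and 34.87 TPM in the first pair and at 79.70 and 79.76 TPM in the second, also its extremes. Gfap did not follow this order: wild-type control replicate 3 had its highest level (118.8 TPM), while wild-type stressed replicate 3, with a like slope, had its second lowest (42.85 TPM). Aldoc, with an effective length of 1645 nt, was at 1041 and 1189 TPM in the first pair and 1000 and 949.5 TPM in the second. In CPM, Aldoc was at 1644 in both libraries of the first pair, its highest values. It was at 987.3 and 934.4 CPM in the second pair, its lowest values. Gja1 was at 104.9 and 92.68 CPM in the first pair and at 142.3 and 124.8 CPM in the second. Of these, 92.68 and 142.3 were its extremes in CPM. Het control replicate 1 had the lowest TPM of the 12 libraries for 6 of the 10 genes and was among the lowest pair for 9. In CPM, that library was lowest for 2 of the 10 genes and highest for 1.

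**Figure D2:**
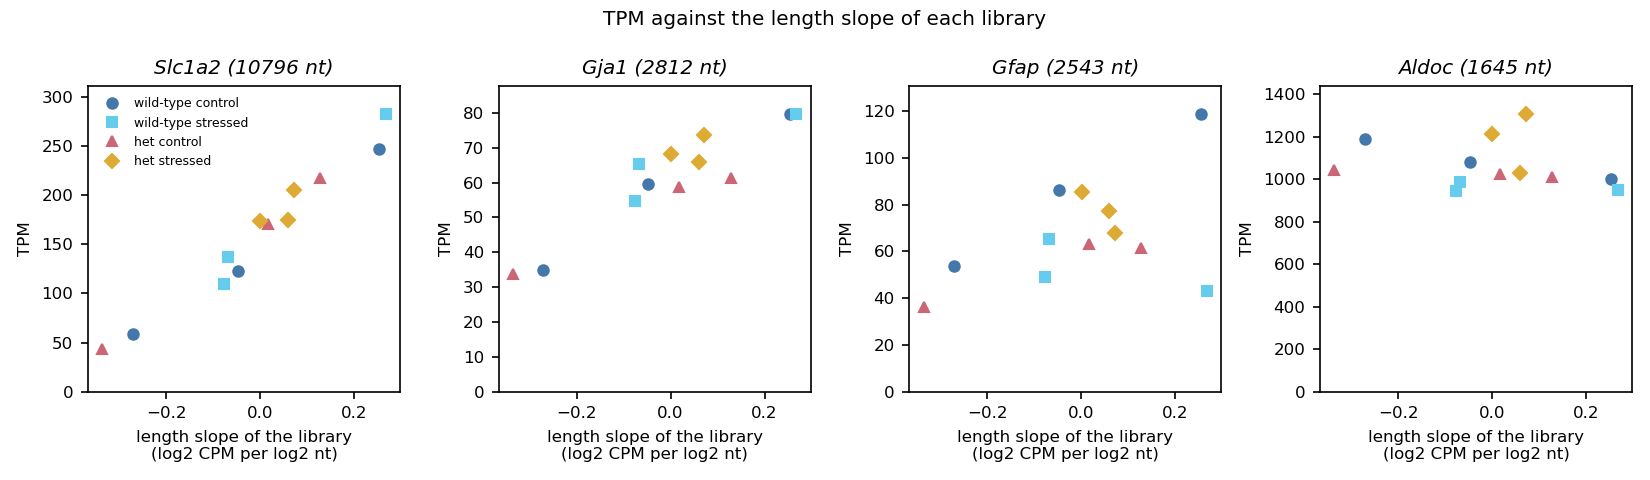
TPM of Slc1a2, Gja1, Gfap and Aldoc (vertical axis, from 0) against the length slope of each library (horizontal axis, log2 CPM per log2 nt), with 1 point per library and a symbol per group; the effective length is in each title. Slc1a2 goes from 43.08 TPM at the lowest slope to 282.7 TPM at the highest, whereas Gfap at the 2 highest slopes is at 118.8 and 42.85 TPM.

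The comparison of stressed with control wild-type mice asks what prenatal stress alone goes with. Gfap stood at 53.93, 86.33 and 118.8 TPM in wild-type controls (86.4 ± 32.5, SD, n = 3) and at 49.03, 65.41 and 42.85 TPM in wild-type stressed mice (52.4 ± 11.7, SD, n = 3). The stressed libraries filled the lower part of the range, and the groups overlapped through control replicate 1. Its log2 fold change was -0.67 ± 0.25 (SE; 95% interval -1.22 to -0.12), with an unadjusted edgeR p of 0.0217 and an adjusted p of 0.99992. It was -0.94 without the library with low Xist, -0.44 without wild-type stressed replicate 3 and -0.82 without the pair of libraries of lowest length slope. The unadjusted p was above 0.05 without wild-type stressed replicate 3 (0.0719), wild-type control replicate 3 (0.0725) or wild-type control replicate 2 (0.0585).

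S100b, the calcium-binding protein, was at 224.8, 297.8 and 305.2 TPM in wild-type controls and 207.7, 234.2 and 199.6 TPM in wild-type stressed mice. The highest stressed library lay above the lowest control, and the log2 fold change was -0.38 ± 0.18 (SE). The gap-junction gene Gjb6 was at 43.48, 51.06 and 51.52 TPM in controls against 29.87, 37.83 and 57.95 TPM in stressed mice, a log2 fold change of -0.29 ± 0.15 (SE). One stressed library exceeded every control. Aldh1l1 had a log2 fold change of -0.18 ± 0.13 (SE). Without wild-type stressed replicate 1 the value of Gjb6 was -0.15 and that of Aldh1l1 -0.09, and without wild-type stressed replicate 3 that of S100b was -0.21. The other 6 genes were within 1 SE of 0. In all, 4 of the 10 genes were higher and 6 lower in stressed wild-type mice, with a median log2 fold change of -0.18, while 48.8% of all tested genes were higher and their median was -0.0058. None of the 10 was called, nor was any gene (0.0% of those tested). An unadjusted p under 0.05 was reached by 1 of the 10, Gfap, and by 2.49% of all genes. No member had CPM values that did not overlap between the groups, against 2.62% of all genes higher and 3.17% lower. In TPM, Aldoc was at 943.3 to 986.5 in stressed and 1000 to 1189 in control mice, a separation on the lower side shared by 2.66% of all genes, but its count-based value was within 1 SE of 0.

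In het mice none of the 10 genes passed the test between stressed and control mice, and 4 had a difference larger than its SE. Gfap was at 36.37, 63.13 and 61.34 TPM in het controls and at 77.25, 85.41 and 67.74 TPM in het stressed mice. The groups did not overlap in TPM but did in CPM, where controls held 95.77 to 117.1 and stressed mice 109.5 to 146.2. The log2 fold change was 0.30 ± 0.25 (SE; 95% interval -0.25 to 0.85). Aqp4, the water channel, was at 9.01, 16.90 and 18.74 TPM in het controls and at 23.48, 19.92 and 21.58 TPM in het stressed mice, a log2 fold change of 0.34 ± 0.22 (SE). All 3 stressed libraries were above all 3 controls in both units. The connexin Gja1 showed the same separation, with 33.73, 58.63 and 61.34 TPM against 65.90, 68.27 and 73.77 TPM and a log2 fold change of 0.26 ± 0.16 (SE). So did the growth factor receptor Fgfr3, with 17.63, 33.99 and 38.28 TPM against 40.84, 38.37 and 39.86 TPM and 0.23 ± 0.16 (SE). Its groups were separated by the smallest step, from 38.28 to 38.37 TPM. The other 6 genes were within 1 SE of 0.

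Of the 10 genes, 8 were higher in het stressed than in het control mice, with a median log2 fold change of 0.16, against 50.5% of all genes and a median of 0.0026. None was called (0.0% of all genes), and 0 of 10 against 1.12% of all genes had an unadjusted p under 0.05. CPM did not overlap, on the higher side, for 3 of the 10 and for 3.97% of all genes. In TPM this held for 6 of the 10 (Gfap, Aqp4, Gja1, Gjb6, S100b and Fgfr3), but also for 14.9% of all genes, and the median of all genes in log2 TPM was itself shifted by 0.18, against 0.35 for the 10. Het control replicate 1, the library of lowest length slope, lies in this comparison. Without it the log2 fold change was 0.23 for Gfap, 0.21 for Aqp4, 0.21 for Gja1 and 0.09 for Fgfr3. Summed TPM of the 10 genes was 1601 to 1921 in het controls and 1927 to 2316 in het stressed mice. Other lists were separated here too. Pan-neuronal genes held 2090 to 2941 and 3213 to 3367, thalamus, cortex and septum markers 61.82 to 117 and 159.1 to 210.1. Immature neuron and progenitor genes held 564 to 630.5 and 718.5 to 910.6. Genes of glial glycolysis and folate metabolism held 3116 to 4002 and 4121 to 4618. Genes of glutamate, glutamine and GABA handling held 649.5 to 1267 and 1272 to 1444. In the count model, the last pair of lists was higher in 13 of 16 (median 0.06) and 12 of 14 (median 0.14). In the count model, pan-neuronal genes were higher in 11 of 11, with a median log2 fold change of 0.14. Thalamus, cortex and septum markers were higher in 8 of 12 (median 0.16). Immature neuron and progenitor genes went against their summed TPM, with 4 of 12 higher and 8 lower (median -0.12). Each of these lists held 0 called genes.

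**Figure D3:**
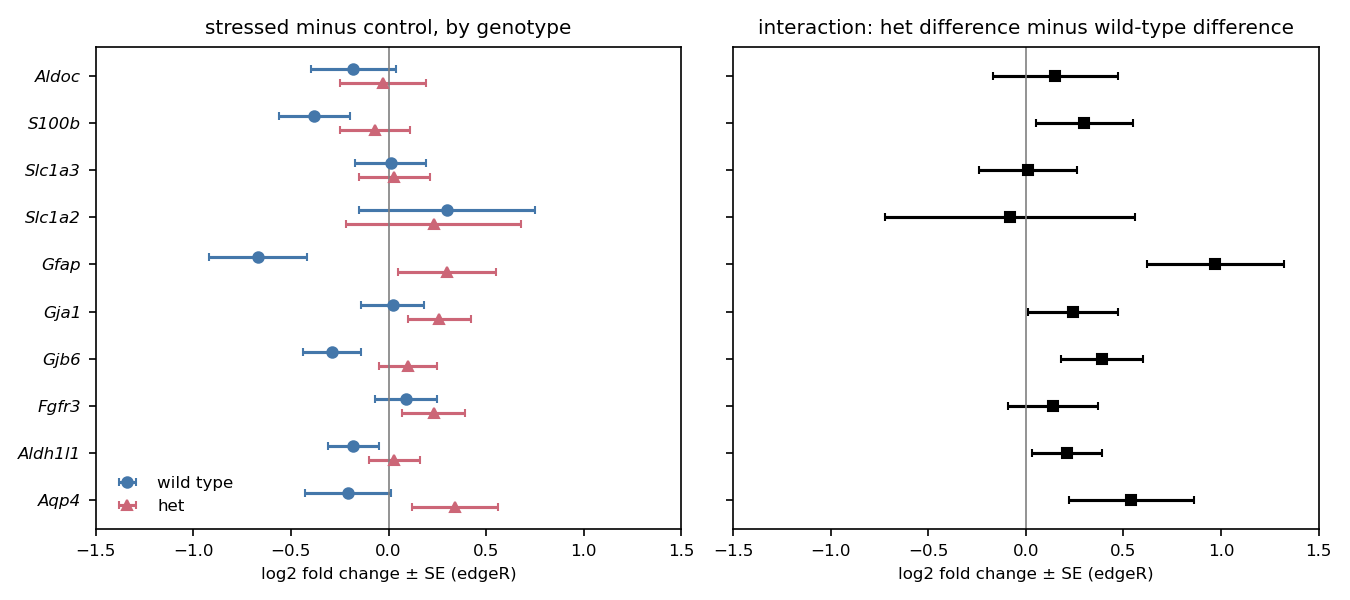
Left, log2 fold change (points) with SE (bars) of stressed minus control mice in wild-type (circles) and het mice (triangles) for each astrocyte gene; right, the difference of both, het minus wild type. Gfap has the largest interaction, 0.97 ± 0.35 (SE), and Slc1a3 and Slc1a2 lie near 0 with Slc1a2 having the widest bars.

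The interaction compares the stress difference of het mice with that of wild-type mice. For Gfap it was 0.97 ± 0.35 (SE; 95% interval 0.19 to 1.75), with an unadjusted edgeR p of 0.0190 and an adjusted p of 0.99997. Its mean TPM was high in wild-type controls (86.4) and het stressed mice (76.8) and low in wild-type stressed (52.4) and het control mice (53.6). The interaction was 1.24 without the library with low Xist, 0.73 without wild-type stressed replicate 3 and 1.05 without the pair of lowest length slope. Over all alternatives the unadjusted p ran from 0.00218 to 0.0464 and the smallest adjusted p was 0.113, in limma-voom with sample weights. Aqp4 followed with an interaction of 0.54 ± 0.32 (SE), then Gjb6 with 0.39 ± 0.21 (SE), S100b with 0.30 ± 0.25 (SE), Gja1 with 0.24 ± 0.23 (SE) and Aldh1l1 with 0.21 ± 0.18 (SE). These rested in part on single libraries: without wild-type control replicate 3 the interaction was 0.31 for Aqp4 and 0.10 for Gja1, without wild-type stressed replicate 1 it was 0.25 for Gjb6 and 0.12 for Aldh1l1, and without wild-type stressed replicate 3 it was 0.12 for S100b. Slc1a2, Slc1a3, Aldoc and Fgfr3 were within 1 SE of 0. Of the 10 genes, 9 were positive, with a median of 0.23, against 48.2% of all genes and a median of -0.0095. None was called (0.0% of all genes), and Gfap was the only one of the 10 with an unadjusted p under 0.05, against 1.33% of all genes.

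The comparison of het with wild-type controls, which shares its controls with both stress comparisons, asks what the Cntnap2 genotype alone goes with. Gfap had a log2 fold change of -0.58 ± 0.25 (SE; 95% interval -1.13 to -0.03), with an unadjusted edgeR p of 0.0411 and an adjusted p of 0.99999. Its CPM was 95.77, 117.1 and 103.2 in het and 121.0, 167.0 and 183.8 in wild-type controls, without overlap, whereas its TPM overlapped. Gjb6 was lower without overlap in both units, with 32.01, 41.66 and 33.99 TPM in het and 43.48, 51.06 and 51.52 TPM in wild-type controls and a log2 fold change of -0.29 ± 0.15 (SE). Aqp4 had -0.31 ± 0.22 (SE), which was -0.09 without wild-type control replicate 3. The other 7 genes were within 1 SE of 0. Of the 10 genes, 2 were higher and 8 lower, with a median of -0.09 against 0.003 for all genes, of which 50.7% were higher. The median of the 10 was -0.20 without wild-type control replicate 1. In the same comparison 14 of 15 oligodendrocyte genes were lower (median -0.28), as were 11 of 11 ependymal genes (median -0.34), while 17 of 17 striatal spiny neuron genes were higher (median 0.22), with 0 called in each list. No member was called by edgeR, against 0.00627% of all genes (Gm6736), and 1 of the 10 against 1.47% of all genes had an unadjusted p under 0.05. CPM did not overlap, on the lower side, for 2 of the 10 and 1.95% of all genes, and in TPM for Gjb6 and 2.54% of all genes. The unadjusted p of Gfap was above 0.05 when 1 of 6 libraries was left out (het control replicates 1 and 3, replicates 2 and 3 of the wild-type controls, and replicate 1 of each stressed group). It was highest, 0.126, without wild-type control replicate 3, where the log2 fold change was -0.45.

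One alternative test gave calls in this comparison. Limma-voom with sample weights called Gfap (log2 fold change -0.55, adjusted p = 0.0471), Gjb6 (-0.37, adjusted p = 0.0363) and S100b (-0.35, adjusted p = 0.0477), 3 of the 10, where it called 983 genes or 6.16% of all tested. In the same comparison DESeq2 called 2 genes and limma-trend on TPM 2, with none of the 10 among them.

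In stressed mice all 10 genes were higher in het than in wild-type mice, with a median log2 fold change of 0.13 against -0.0036 for all genes, of which 48.8% were higher. That astrocyte genes are higher here was known when the genes were chosen. Some other lists leaned the same way, with 15 of 15 oligodendrocyte genes (median 0.21), 12 of 12 microglial genes (median 0.07) and 8 of 8 other connexins (median 0.07) higher and 0 called, whereas 11 of 11 ependymal genes were lower (median -0.72). Immature neuron and progenitor genes were lower in 10 of 12 (median -0.51), 6 of them with an unadjusted edgeR p under 0.05 and 0 called. Striatal spiny neuron genes were higher in 7 of 17, and endothelial and mural genes in 6 of 13. The values were small: Gfap had 0.39 ± 0.25 (SE), Aqp4 0.23 ± 0.22 (SE) and Aldh1l1 0.14 ± 0.13 (SE), and the other 7 were within 1 SE of 0. Gfap was 0.15 without wild-type stressed replicate 3, Aqp4 0.13 without het stressed replicate 1 and Aldh1l1 0.05 without wild-type stressed replicate 1. None was called, against 0.00627% of all genes, and 0 of 10 against 0.57% had an unadjusted p under 0.05. CPM did not overlap, on the higher side, for Aqp4 alone, against 3.08% of all genes; in TPM this held for Gfap, Aqp4, Aldoc and S100b, against 8.34%.

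Het stressed mice differ from wild-type controls in both factors. Here 5 of the 10 genes were higher and 5 lower, as were 49.3% of all genes higher. Gfap had a log2 fold change of -0.28 ± 0.25 (SE), S100b -0.25 ± 0.18 (SE) and Gjb6 -0.19 ± 0.15 (SE), with the other 7 within 1 SE of 0. Gfap was -0.16 without wild-type control replicate 3, and S100b -0.16 without wild-type control replicate 2. CPM of Gjb6 and S100b did not overlap, on the lower side, against 2.66% of all genes. In TPM 0 of the 10 were separated on either side, against 0.896% of all genes lower and 8.31% higher. Oligodendrocyte genes were lower in 15 of 15 (median -0.30, 0 called), 3 of them with an unadjusted edgeR p under 0.05. Reactive astrocyte genes were lower in 28 of 31 (median -0.26, 0 called), 2 of them with such a p. Of 30 other astrocyte markers, 18 were higher and 12 lower (median 0.04, 0 called). None of the 10 members was called, against 0.00627% of all genes, and 0 of 10 against 1.28% had an unadjusted p under 0.05. Averaged over both prenatal conditions, all 10 genotype differences were within 1 SE of 0, none was called against 0.00627% of all genes, and 0 of 10 against 0.708% had an unadjusted p under 0.05. The genotype average of Gfap had a 95% interval of -0.48 to 0.30, and that of Slc1a2 of -0.65 to 0.76. Averaged over both genotypes, stressed minus control gave -0.22 ± 0.12 (SE) for S100b, -0.18 ± 0.18 (SE) for Gfap, 0.16 ± 0.11 (SE) for Fgfr3 and 0.14 ± 0.11 (SE) for Gja1. The value of Gfap was -0.07 without wild-type stressed replicate 3, that of Fgfr3 0.09 without het control replicate 1 and that of Gja1 0.06 without wild-type control replicate 1. None was called (0.0% of all genes), and 0 of 10 against 2.34% had an unadjusted p under 0.05.

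Most of the RNA of a gene came from 1 or a pair of annotated transcripts. The 2648-nt Gfap transcript ENSMUST00000067444.3 held 93.2 to 95.4% of Gfap TPM, and the 4163-nt Slc1a3 transcript ENSMUST00000005493.7 held 98.3 to 99.6% of Slc1a3 TPM. Slc1a2 was split between a 10972-nt transcript with 69.8% and an 11595-nt transcript with 27.9% of its TPM on average. The 706-nt Aldoc transcript ENSMUST00000156039.1, singled out after its values were seen, was at 144.5 and 165.2 TPM in the 2 libraries of lowest length slope and at 13.2 to 64.96 TPM in the other 10. The 1302-nt Gja1 transcript ENSMUST00000163792.1, also singled out after its values were seen, held 0 to 29.9% of Gja1 TPM. It was at 15.78 to 16.45 TPM in wild-type stressed libraries and at 0 to 12.18 TPM in all others. No transcript of the 10 genes was called among 37796 transcripts tested. Of all transcripts, 0.00265% were called for het against wild type without stress, for stress in het mice and for the stress average, and 0.0% in the other 5 comparisons.

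Genes that work beside the 10 in the same cells gave no call either. Of 30 other astrocyte markers, 22 had a positive interaction, with a median of 0.17. The smallest unadjusted p-values among them were those of Agt, which encodes angiotensinogen (1.39 ± 0.50, SE), and of Lcat, an enzyme of lipoprotein metabolism (0.51 ± 0.22, SE). In wild-type mice 11 of the 30 were higher and 19 lower with stress, with a median of -0.09 and the smallest p-values for Agt (-1.0 ± 0.35, SE) and the urea transporter gene Slc14a1 (-0.43 ± 0.19, SE). In het mice 24 were higher and 6 lower, with a median of 0.12, led by Gpc5, a cell-surface proteoglycan (0.30 ± 0.13, SE), and Bmpr1b, a receptor of bone morphogenetic proteins (0.36 ± 0.22, SE).

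The 14 genes of glutamate, glutamine and GABA handling had a median interaction of 0.22, with 12 positive, among them the amino acid transporter Slc38a2 (0.49 ± 0.26, SE). The 13 genes of potassium, water and ion handling had a median of 0.19, with 9 positive, led by the ion cotransporter Slc12a2 (0.67 ± 0.40, SE) and the potassium channel subunit Kcnj16 (0.42 ± 0.32, SE). Of 16 genes of FGF receptor signalling, in which Fgfr3 acts, 11 were positive with a median of 0.08, led by the ligands Fgf1 (0.43 ± 0.18, SE) and Fgf9 (0.45 ± 0.21, SE). Of 16 genes of glial glycolysis and folate metabolism, 12 were positive with a median of 0.12, led by the lactate transporter Slc16a1 (0.61 ± 0.22, SE) and Aldh1a1 (0.54 ± 0.25, SE). Each of these lists held 0 called genes, and the list of other connexins (6 of 8 positive, median 0.24) was led by Gjb1, a connexin of oligodendrocytes (0.53 ± 0.25, SE).

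Reactive astrocyte genes, a list that does not include Gfap, had 31 of 38 genes tested. With stress, 24 of 31 were lower in wild-type mice (median -0.23) and 19 of 31 in het mice (median -0.16), and 0 were called. In wild-type mice the smallest p-values were those of Gbp2, an interferon-induced GTPase (-0.67 ± 0.26, SE), and Fbln5, a matrix protein (-0.46 ± 0.19, SE). The interaction had a median of 0.05, with 19 positive and 12 negative, led by the hyaluronan receptor Cd44 (0.80 ± 0.32, SE) and by Ggta1 (-0.33 ± 0.22, SE).

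Markers of other cell types moved with the groups as well, and their part in the astrocyte values was not tested. All 15 oligodendrocyte genes, which serve myelin, were lower in stressed than in control wild-type mice, with a median log2 fold change of -0.52 and 0 called. Of these 15, 10 had an unadjusted edgeR p under 0.05, against 2.49% of all genes and 1 of the 10 astrocyte genes. The interaction of the oligodendrocyte genes was positive in 15 of 15 with a median of 0.52, the sign seen for 9 of the 10 astrocyte genes. Microglial genes were lower with stress in wild-type mice in 12 of 12 (median -0.16) and had a positive interaction in 12 of 12 (median 0.10), and striatal spiny neuron genes were higher in 17 of 17 (median 0.14) with a negative interaction in 17 of 17 (median -0.21), with 0 called in both. The oligodendrocyte summed TPM was 9615 to 14960 in wild-type controls, 7187 to 10220 in wild-type stressed, 5600 to 11540 in het controls and 10380 to 12100 in het stressed mice. The 10 genes of the choroid plexus, a secretory tissue of the brain ventricles, summed to 303 to 583.2 TPM in wild-type controls and 7 to 28.09 TPM in wild-type stressed mice. They summed to 10.71 to 857.9 TPM in het controls and 13.29 to 577.9 TPM in het stressed mice. Ttr, the carrier protein transthyretin, was at 289.8 to 555.9 TPM in wild-type controls and 0.9 to 11.44 TPM in wild-type stressed mice. Summed TPM of the ependymal list was 26.22 to 132.4, that of the microglial list 635.1 to 889.6, and that of the striatal spiny neuron list 4866 to 11260 over the 12 libraries, with overlapping groups in each stress comparison. Markers of thalamus, cortex and septum neurons, regions near the punch, were lower in 12 of 12 for het against wild-type controls, with a median of -0.54. They summed to 61.82 to 117 TPM in het and 107.3 to 195.3 TPM in wild-type controls, and 0 were called. Immature neuron and progenitor genes were higher with stress in wild-type mice in 10 of 12, with a median of 0.46 and 0 called. Of the 12, 5 had an unadjusted edgeR p under 0.05, all of them higher.

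**Figure D4:**
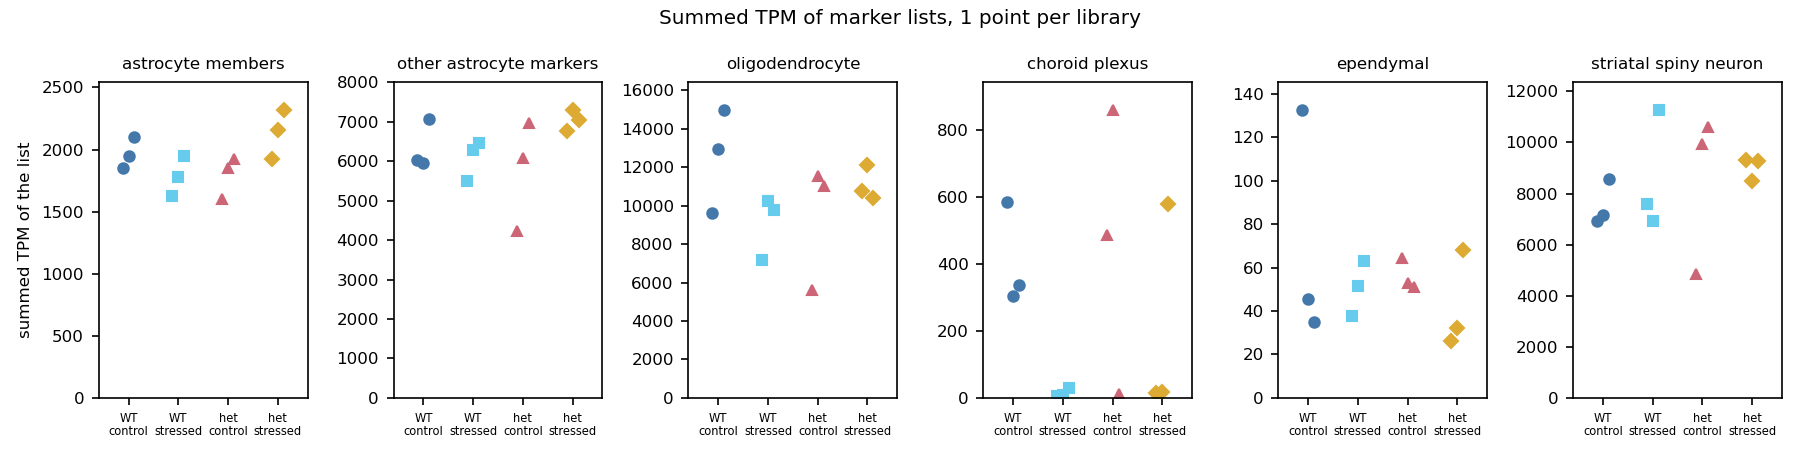
Summed TPM (vertical axis, from 0) of the 10 astrocyte genes and of lists of other markers in the 4 groups, with 1 point per library. Choroid plexus genes are at 7 to 28.09 TPM in the 3 wild-type stressed libraries and at 303 to 583.2 TPM in the wild-type controls, and the sum for the astrocyte genes runs from 1601 to 2316 TPM.

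The 10 genes did not vary as 1 block over the 12 libraries. Each library received a score, the mean of the genes' z-scores of log2 CPM, and each gene was set against the mean of the other 9. Pearson's r was 0.61 for Gfap, 0.57 for Gja1, 0.51 for Aqp4 and 0.47 for Aldh1l1. It was 0.23 for Gjb6 and Fgfr3, 0.13 for Slc1a2, 0.08 for S100b, -0.34 for Aldoc and -0.39 for Slc1a3. These values are descriptions, since libraries share depth, length slope and cell composition. The score was lowest in wild-type stressed replicate 1 (-0.78) and het control replicate 1 (-0.44) and highest in wild-type control replicate 3 (0.57). The genes outside the set most like the score were Ttc39aos1 (r = 0.936), Rad21 (0.884), Mfn1 (0.867), Mtmr2 (0.863), Mccc1 (0.86), Fgf1 (0.857), Asb16 (0.842) and Jam2 (0.824), over the same 12 libraries. They were picked as the highest r among all tested genes, so high values are due in part to the picking, and no background was computed. Only Fgf1 was in a list used here, that of FGF receptor signalling, and none was in that of other astrocyte markers. Ttc39aos1 was at 0.39 to 4.08 TPM and is named as an opposite-strand transcript, whose reads cannot be told apart from those of its partner without strand; Rad21, a cohesin subunit, at 30.6 to 65.6 TPM.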

How the data were processed

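RNA was copied from random primers with a NuGen kit, per the labels' protocols, and the submitters' processing notes name RSEM and Bowtie, with mm9 (NCBIM37) as the build; tool versions for RNA: not given in the sources used here. Per the file headers, the deposited tables hold the expected count, the TPM and the effective length of each gene and transcript, and the percent of a gene's abundance in each transcript, for 1 library each. Gene symbols were joined by Ensembl identifier to a table of gene names (32606 of 37289 genes). Tables of 5hmC were not used here, since linking their regions to genes needs an mm9 annotation.

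Rounded expected counts of genes passing filterByExpr were modelled in edgeR 4.0.16 (R 4.3.3) with TMM scaling, robust glmQLFit and glmQLFTest; the model had 4 group means over 12 libraries, from which 8 comparisons were taken. The biological coefficient of variation was 0.256. The same was done for 37796 transcripts. CPM is scaled by TMM; log2 CPM has a prior count of 2 and log2 TPM a pseudocount of 1. Fold changes are those of the count model. Limma 3.58.1 and DESeq2 1.42.0 served as alternatives, with other scaling, filters and libraries left out. Replicates are separate mice per the labels, and p-values measure the spread between them. The model has no term for litter. If mice of a group share a litter, p-values and intervals of the stress comparisons and the interaction may be too small. No replicate pair agreed within sampling noise (chi-square per gene 8.85 to 219). Of 280 list entries, 279 were matched. Strand use is not stated, so overlapping and antisense genes cannot be told apart. The members, the lists and the tests were chosen with earlier results of these data known. Named genes are the 10, the 2 of each list described with the smallest p in a comparison (some are not reported here), the 8 most like the score, and Xist, Ttr, Cntnap2 and Gm6736 as label checks, the last chosen after its values were seen.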

Additional observations from a re-analysis of the deposited data

How the results depend on the processing

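Under 22 alternatives, 339 summary values stayed within their spread or count and 7 did not, while 582 of the single-gene values stayed on their side of the threshold and 2 passed it; no value turned its direction among those at least as large as their SE. The count of astrocyte genes called for het against wild type without stress was 3 in limma-voom with sample weights, against 0 by edgeR, and S100b was among them. With limma-trend on log2(TPM + 1), in which the median of all genes is shifted, the median of the 10 genes was 0.42 for the interaction, 0.24 for het against wild type in stressed mice, 0.17 for het stressed against wild-type control mice, 0.11 for the stress average and 0.40 for stress in het mice; the medians of all genes there were 0.169, 0.104, 0.142, 0.122 and 0.214. The cause was not tested. Leaving out 1 library at a time, the median for het against wild type without stress ran from -0.20 (without wild-type control replicate 1) to -0.07. A fit on the groups of a comparison alone is not possible for the interaction and the averages. DESeq2 and limma-trend called 0 of the 10 in any comparison. Same-numbered replicates did not meet the criterion for pairing, since 9 of 18 pairs had a correlation of deviations above 0.1 (-0.26 to 0.67). The evidence is mixed, as 8 of 12 libraries correlated best with their own number. With a replicate block, 0 of the 10 genes were called in any comparison; the wild-type stress difference of Gfap was -0.70 and its het against wild-type difference in stressed mice 0.42. With 3 mice in a group, differences as small as most of those above lie within the spread between mice.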
